A study of Drosophila melanogaster with 12 samples.

Results

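The comparison asked whether the day-night difference of a transcript depended on the presence of a light cycle in heads of adult Drosophila melanogaster that carry the tim01 mutation. For each probe set, the difference between the light and the dark phase of a light-dark day was taken, and the difference between the subjective day and the subjective night of the next day in constant darkness was subtracted from it. The resulting interaction is a double difference on the log2 scale. It was computed for 13966 of the 14010 probe sets of the array (44 controls were left out) and used all 12 arrays of the series.

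All flies were y w; tim01, so no group had a wild-type clock, and no such group was analysed here. They had been held for 3 days in cycles of 12 h light and 12 h dark and were then collected every 4 h over 1 further such day (LD) and over the next 24 h without light (DD). There were 4 groups of 3 arrays each. In LD, the light phase held ZT2, ZT6 and ZT10 (hours after lights-on) and the dark phase ZT14, ZT18 and ZT22. In DD, CT2, CT6 and CT10, the matching hours in darkness, made up the subjective day, and CT14, CT18 and CT22 the subjective night. Each array held RNA from a pool of about 100 to 200 heads, separated from frozen bodies with sieves, and the labels give no age. There was 1 array per time, so the arrays of a group are not replicates of 1 condition, and p-values speak only of the spread between these particular arrays. LD always preceded DD, so lighting cannot be told apart from the day of collection or the age of the flies.

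In wild-type flies, the products of timeless (tim) and period (per) enter the nucleus together and repress their own activators, Clock (Clk) and cycle (cyc), which gives a rhythm that persists in darkness. The tim01 allele removes TIM protein and stops this loop, and light can then reach transcripts through the eyes, through the photoreceptor protein Cryptochrome, or through activity and feeding. A transcript driven by light alone would differ between the phases of LD and be level in DD. A transcript that moved alike on both days would have an interaction near 0, and so would one that drifted steadily over the collection times, because a straight drift cancels in the double difference. A curved drift does not cancel.

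The arrays resembled each other, with correlations across probe sets between 0.985 and 0.996, and 0 of the pairs held identical values. The 3′ minus 5′ difference of the control transcript eIF-4a, a sign of RNA quality, lay between 2.90 and 3.70 and was highest at ZT14, which also had the lowest spike-in mean (8.32). The CT2 array had the lowest median, 4.0, against 4.10 on the array with the highest. Of the markers of the head, 8 of 12 neuron genes, 10 of 12 eye genes, 8 of 9 glia genes and 15 of 16 fat body genes had a mean above the median of all probe sets. Of genes of organs outside the head, 28 of 39 digestive enzymes and 14 of 29 male reproductive genes lay above it, as 6983 of the 13966 probe sets do by definition. So did 12 of 16 thorax muscle genes and 10 of 15 ovary genes. This level therefore does not set head genes apart from those of other organs.

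No interaction passed the test. By limma, 0 of 13966 probe sets had an adjusted p under 0.05 (0%), the threshold used throughout, and 1025 had an unadjusted p under 0.05 (7.34%). Of the latter, 610 were positive (4.37% of all tested), meaning that the LD difference lay above the DD difference whatever their signs, and 415 were negative (2.97%). At any p, 7369 interactions were above 0 (52.8%). This split turned with the scaling: it was 511 positive and 600 negative after quantile normalization was run again, and 499 and 569 after median centring. It also turned without CT2, to 379 and 478. The median interaction of all probe sets was 0.01, and the median standard error was 0.112. Within single days, 4 probe sets passed between light and darkness in LD (0.0286%) and 194 between subjective day and night in DD (1.39%).

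The interactions with a small p came from both days. Among the 1025 probe sets, the DD difference was the larger of the pair in 596 (58.1%, against 51.1% of all probe sets) and the LD difference in 429. Of the 610 positive ones, 425 had the larger difference in DD, and of the 415 negative ones, 244 had it in LD. The LD and DD differences had opposite signs in 798. Picking by a large double difference favours opposite signs, and the share over all probe sets was not counted, so this number is only a description. The 24 genes with the smallest p-values, which are described first, held 16 positive and 8 negative interactions. The difference was larger in DD for 14 of them and larger in LD for 10. Their adjusted p-values were 0.0694 for Sirup and between 0.306 and 0.328 for the others, so the values below describe these arrays and no difference between the days was called for any of them.

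**Figure D1:**
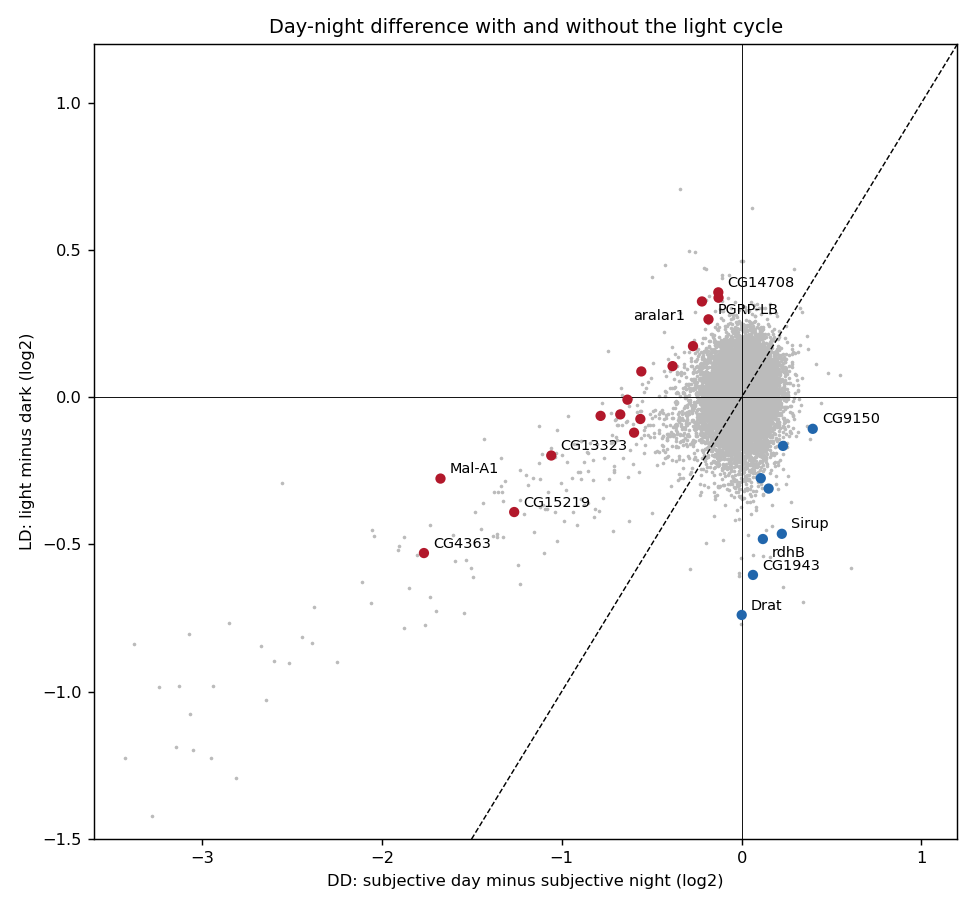
The LD difference (light minus dark, vertical axis, log2) of each probe set is plotted against its DD difference (subjective day minus subjective night, horizontal axis, log2), with a dashed line where both are equal and the 24 genes in red (positive interaction) or blue (negative). Genes such as Drat and CG1943 lie low on the LD axis near 0 on the DD axis, while Mal-A1 and CG4363 lie far to the left, with DD differences of -1.67 and -1.77.

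Sirup (CG7224), which encodes an assembly factor of mitochondrial respiratory complex II, had the smallest p-value. Its values were 7.85, 7.91 and 8.02 in light and 8.29, 8.49 and 8.39 in the LD dark phase, then 8.38, 8.35 and 8.25 by subjective day and 8.08, 8.14 and 8.09 by subjective night. The light and dark arrays did not overlap on either day, and the order of the phases was turned between the days. The lit arrays were also lower than all 9 arrays taken in darkness. The LD difference was -0.46 (limma adjusted p = 0.0397), the DD difference was 0.22 (adjusted p = 0.208) and the interaction was -0.69 (SE 0.0996, adjusted p = 0.0694). Over the 23 alternatives the interaction lay between -0.74 and -0.64, and it passed the threshold in 7 of them.

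Drat (CG1600), an alcohol dehydrogenase family gene, was low on the lit arrays and level afterwards. It measured 7.17, 6.81 and 6.71 in light and 7.44, 7.88 and 7.58 in the LD dark phase. In DD the 6 values lay between 7.43 and 7.59, close to the LD dark arrays and above every lit array. The LD difference was -0.74 (limma adjusted p = 0.0474), the DD difference 0.00, and the interaction -0.74 (SE 0.165, adjusted p = 0.328).

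CG1943 was low on the lit arrays, at 5.93, 5.88 and 5.94, and measured 6.72, 6.59 and 6.25 in the LD dark phase. In DD its values were 6.14, 6.06 and 5.94 by subjective day and 5.89, 6.13 and 5.94 by subjective night, between the lit and the dark arrays of LD and overlapping the lit ones. The 3 highest values of the series were thus those of the LD dark phase, with ZT14 on top. The interaction was -0.67 (SE 0.144, limma adjusted p = 0.328), with -0.60 in LD and 0.06 in DD. It passed in 1 of the 23 alternatives, without ZT22, where it was -0.80.

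The retinol dehydrogenase gene rdhB (CG7077), which acts in making the visual chromophore, measured 6.82, 6.58 and 6.74 in light and 6.95, 7.38 and 7.25 in the LD dark phase. Its DD values, 6.96 to 7.21, all lay above the lit arrays. The interaction was -0.60 (SE 0.137, adjusted p = 0.328 by limma), with an LD difference of -0.48. CG8419 had the same order at smaller size, with 5.12 to 5.25 in light and 5.26 to 5.50 on the 9 dark arrays, and an interaction of -0.38 (SE 0.0887).

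A few genes stood higher on the lit arrays. PGRP-LB (CG14704), an enzyme that degrades bacterial peptidoglycan and dampens the Imd immune pathway, measured 5.36, 5.37 and 5.38 in light and 5.01, 5.10 and 5.20 in the LD dark phase. In DD it measured 4.99, 5.07 and 5.04 by subjective day and 5.15, 5.19 and 5.32 by subjective night. The lit values lay above all 9 dark arrays, and in DD the order was turned without overlap. The interaction was 0.45 (SE 0.0959, limma adjusted p = 0.328). CCT8 (CG8258), a subunit of the chaperonin that folds actin and tubulin, measured 5.78, 5.71 and 5.58 in light and 5.14 to 5.44 on the 9 dark arrays, with an interaction of 0.47 (SE 0.109). CG14708 had a similar LD difference, 0.36, and an interaction of 0.49. Its mean was low, with values between 2.08 and 2.56.

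The LD and DD differences were opposed in sign with no overlap of the arrays on either day in 76 probe sets. Of these, 37 had a positive (0.265% of those tested) and 39 a negative interaction (0.279%), and 68 were among the 1025 with an unadjusted p under 0.05. Arrays in random order also give some such probe sets. The count was not tested against that and is only a description. The 76 included 6 of the 24 genes: Sirup, PGRP-LB, CG7251, CG11368, aralar1 and sei. The gene aralar1 (CG2139) encodes a mitochondrial carrier of aspartate and glutamate. Its values were 6.55, 6.26 and 6.48 in light, 6.24, 6.01 and 6.07 in the LD dark phase, 5.97, 6.14 and 6.17 by subjective day, and 6.31, 6.27 and 6.36 by subjective night. Light exceeded darkness in LD and subjective night exceeded subjective day in DD, each by a small gap at the nearest arrays. The interaction was 0.55 (SE 0.122, limma adjusted p = 0.328).

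The gene sei (seizure, CG3182), which encodes a voltage-gated potassium channel of the ERG family, ran the other way. It measured 5.56, 5.26 and 5.48 in light, 5.69, 5.78 and 5.76 in the LD dark phase, 5.70, 5.68 and 5.67 by subjective day, and 5.53, 5.49 and 5.58 by subjective night. The LD difference was -0.31, the DD difference 0.15 and the interaction -0.46 (SE 0.106, adjusted p = 0.328 by limma). CG11368 measured 9.07 to 9.27 in light and 9.32 to 9.37 in the LD dark phase, then 9.20 to 9.23 by subjective day and 8.96 to 9.01 by subjective night, with an interaction of -0.40. CG7251 had an interaction of 0.44. Its DD night values, 4.91 to 5.03, were above those of the DD day, 4.66 to 4.79. Among the other crossing genes were the polyubiquitin gene Ubi-p63E (interaction 0.41) and the trehalose transporter gene Tret1-1 (0.53), both named after their values were seen.

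**Figure D2:**
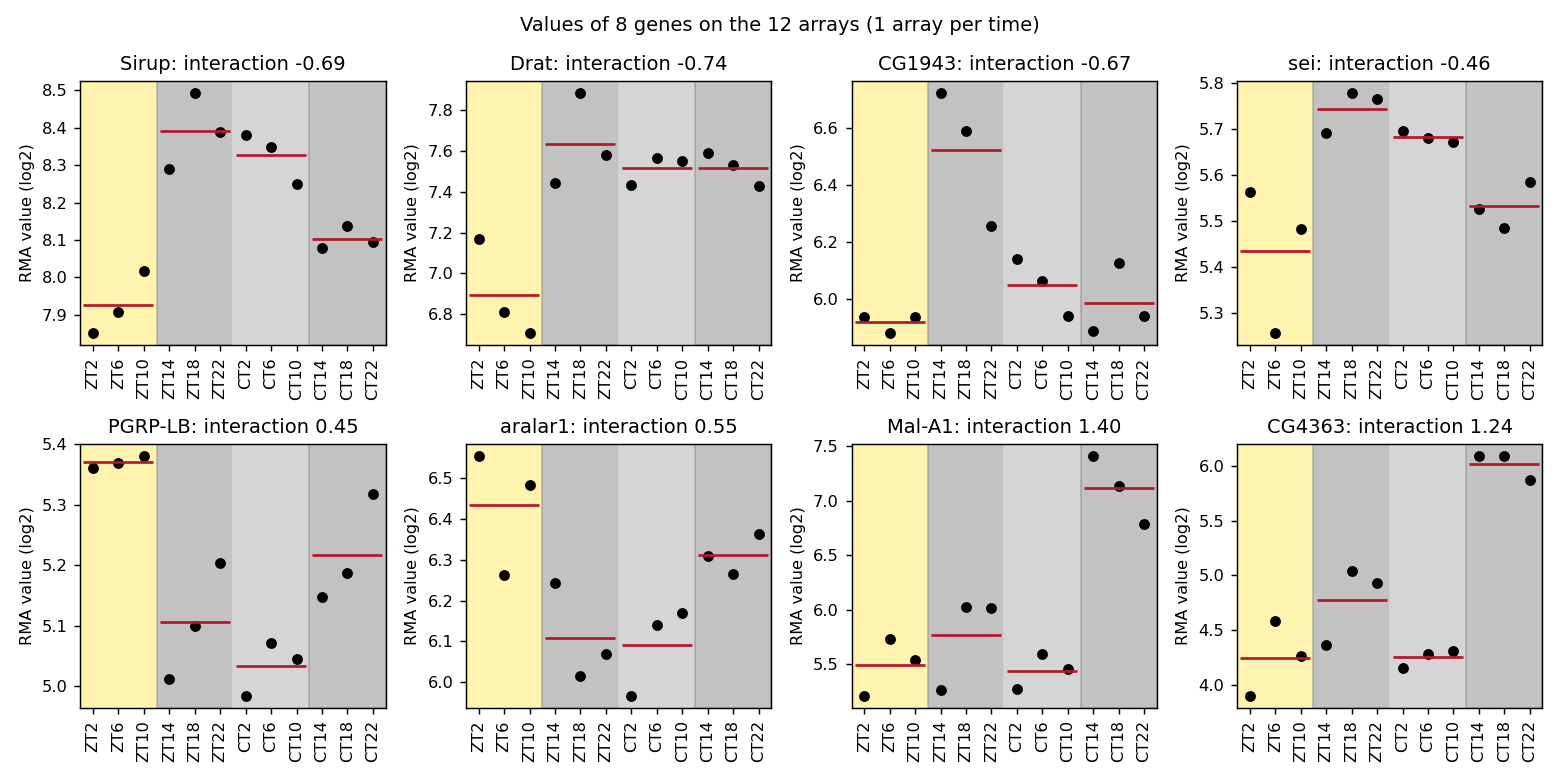
RMA values (log2, vertical axis) of 8 of the 24 genes on each of the 12 arrays in order of collection, with yellow for light, dark grey for the LD dark phase and the subjective night, light grey for the subjective day, and red lines for group means. Drat and CG1943 differ between the phases of LD and are nearly level over DD, Sirup, sei, PGRP-LB and aralar1 turn their order between the days, and Mal-A1 and CG4363 are highest on the 3 arrays of the DD subjective night.

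For most of the 24 genes the larger difference lay in DD. In 12 of the 14 genes with the larger difference in DD, the interaction was positive. In 12 of the 14 the DD difference passed the threshold, as it did in 1.39% of all probe sets. In 13 the 3 DD night arrays lay apart from all other 9, as they did in 3.49% of all probe sets. These arrays and the DD difference enter the interaction by which the genes were picked, so these counts are only descriptions. Mal-A1 (CG8696), a sugar-cleaving maltase of the gut, measured 5.21, 5.73 and 5.54 in light, 5.27, 6.03 and 6.01 in the LD dark phase, and 5.27, 5.59 and 5.46 by subjective day. By subjective night it measured 7.41, 7.14 and 6.79. The DD difference was -1.67 (limma adjusted p = 0.00103), the LD difference -0.28, and the interaction 1.40 (SE 0.272, adjusted p = 0.306).

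CG4363 behaved alike, with 3.90, 4.58 and 4.27 in light, 4.37, 5.04 and 4.93 in the LD dark phase, 4.16, 4.28 and 4.31 by subjective day and 6.09, 6.09 and 5.87 by subjective night. Its interaction was 1.24 (SE 0.231, limma adjusted p = 0.306). CG15219 (interaction 0.87), CG13323 (0.86), CG9624 (0.65), CG15631 (0.63), CG9254 (0.62) and CG5107 (0.48) also had their 3 highest values in the subjective night. So had Npc2f (0.49), a gene of a sterol-binding protein family. CG4377 (0.72) and CG32436 (0.49) had this order on the probe set with the higher mean, but a second probe set of each had an interaction of -0.05 and -0.09. Of the 24 genes, 5 had a mean below 2.88, the lowest lower quartile of an array, where RMA values are compressed and the size of a difference is uncertain.

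CG9150 and CG11368 were the 2 genes with the larger difference in DD and a negative interaction. CG9150 measured 6.22 to 6.26 in light, 6.24 to 6.42 in the LD dark phase and 6.06 to 6.33 by subjective day, and then 5.79, 5.78 and 5.87 by subjective night. The 3 lowest values of the series were those of the subjective night. The DD difference was 0.40 (limma adjusted p = 0.0153) and the interaction -0.50 (SE 0.106, adjusted p = 0.328).

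Genes of the gut, the male reproductive tract and thorax muscle were also highest in the DD subjective night. Their summed level was followed with a body-tissue score, the mean of the 3 list medians after each gene was centred on its own mean. The score was -0.21 ± 0.10 in LD light, -0.03 ± 0.26 in LD dark, -0.19 ± 0.24 in the DD subjective day and 0.47 ± 0.07 in the DD subjective night (SD, n = 3 arrays each). Its interaction was 0.47 (exact two-sided permutation p = 0.2 over the 20 splits of the 6 clock hours, of which the smallest possible p is 0.1). No conclusion is drawn from this p, because the hours follow each other in time and the lists were chosen with earlier results known. The 3 arrays of the subjective night had the 3 highest scores, 0.47, 0.54 and 0.40, and the next was ZT22 with 0.18. In pooled heads, fewer cells of a type and less RNA per cell cannot be told apart.

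In a fit with this score as a covariate, CG4363 stood at 0.75, Drat at -0.83, Sirup at -0.72, rdhB at -0.78 and CG1943 at -0.42. Mal-A1, at 0.86, is itself one of the digestive genes that form the score. Because the score was highest on the DD night arrays, this fit takes up any difference of those arrays, and a smaller value in it shows no cause. The count at an unadjusted p under 0.05 was 720, with 359 positive and 361 negative. The part of body tissue in the interactions was not tested beyond these values.

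**Figure D3:**
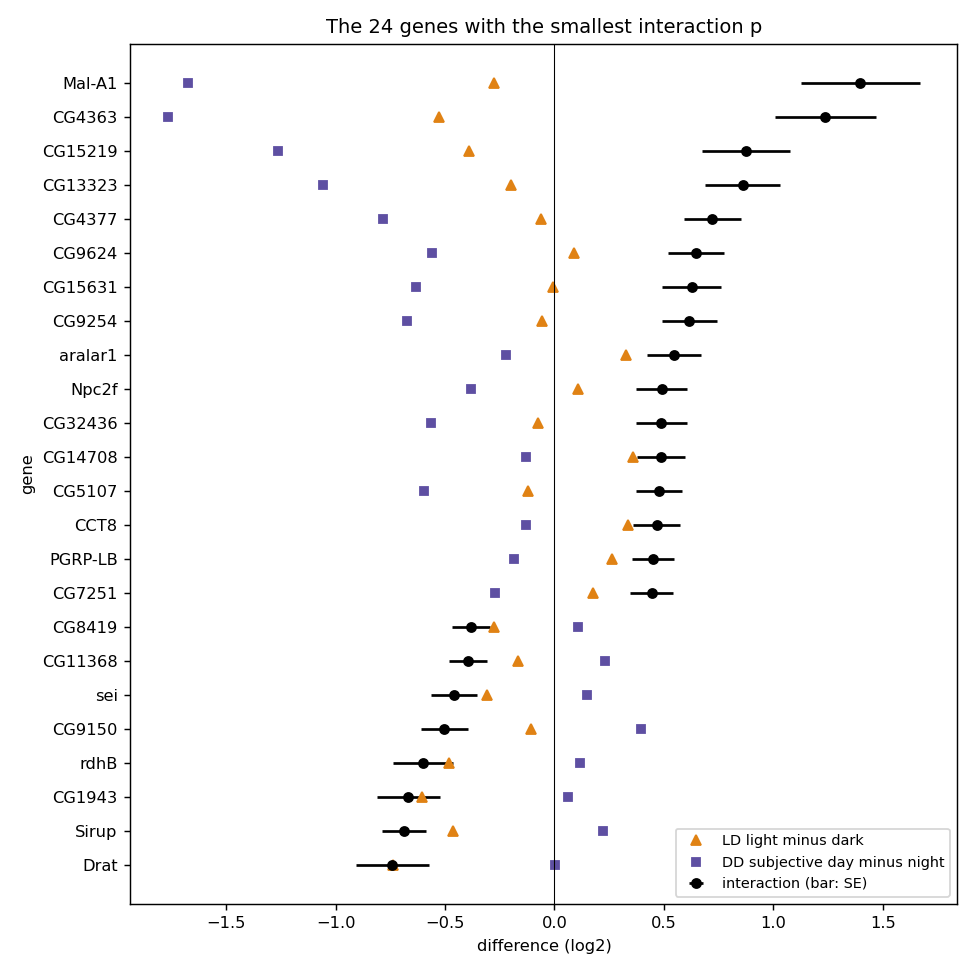
Interaction (black dots, bars are standard errors, log2) of the 24 genes with the smallest p-values, with the LD difference (orange triangles) and the DD difference (purple squares) of each. Most genes with a positive interaction have a larger, negative DD difference, as Mal-A1 with -1.67, and most with a negative interaction have a larger, negative LD difference, as Drat with -0.74 in LD and 0.00 in DD.

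The measured genes that make the visual chromophore had interactions of the same sign, with that of ninaB smaller than its standard error. Flies take up carotenoids through scavenger receptors, cleave them to retinal and modify it before it joins the rhodopsins. Of 7 listed genes, 6 were measured and all 6 had a negative interaction, while 52.8% of all probe sets were above 0. At an unadjusted p under 0.05 there were 5, where 2.97% of all probe sets were negative. The count was 2 with the body-tissue score as a covariate and 4 or 5 without single arrays. The median interaction was -0.34, with medians of -0.20 in LD and 0.08 in DD, and 0 members passed the threshold. Beside rdhB, the photoreceptor dehydrogenase gene Pdh (CG4899), whose product recycles retinoids in pigment cells, was at -0.39 (SE 0.142). Its values were 8.88 to 9.12 in light, 9.17, 9.47 and 9.37 in the LD dark phase, and 9.06 to 9.40 in DD. Only CT22 of the DD arrays was as low as the lit arrays.

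The oxidoreductase gene ninaG (CG6728), needed for the final chromophore, was at -0.32 (SE 0.11). It measured 6.09, 6.05 and 6.08 in light, 6.50, 6.36 and 6.20 in the LD dark phase and 5.98 to 6.13 in DD. Its DD arrays thus stood with the lit arrays and not with the LD dark arrays, unlike those of rdhB. The retinoid-binding protein gene pinta (CG13848) differed by -0.10 in LD and 0.26 in DD, with 5.54, 5.57 and 5.29 by subjective day and 5.06, 5.34 and 5.22 by subjective night, so most of its interaction of -0.35 (SE 0.123) came from DD. The scavenger receptor gene santa-maria was at -0.23 (SE 0.102), and ninaB, the oxygenase that cleaves carotenoids, was at -0.09 (SE 0.168). The list median was -0.17 with the body-tissue score as a covariate, -0.35 after quantile normalization and -0.31 without CT2, and it was negative in all 23 alternatives.

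**Figure D4:**
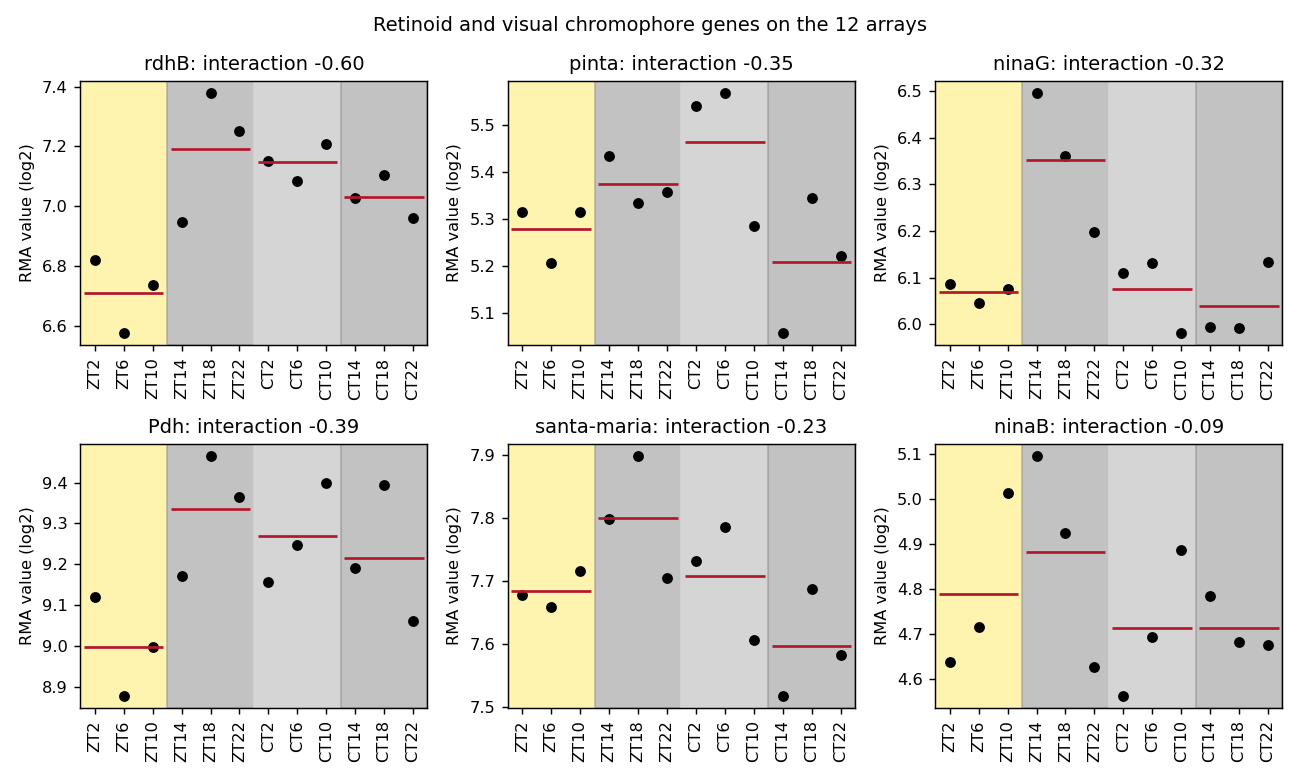
RMA values (log2, vertical axis) of the 6 measured chromophore genes on the 12 arrays, with the shading and red group means as in the plot of 8 genes. rdhB is low on the 3 lit arrays and high on the others, ninaG is high in the LD dark phase alone, and pinta is highest at CT2 and CT6.

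The measured genes of the phototransduction cascade showed no common direction. The rhodopsin genes (ninaE, Rh2, Rh3, Rh4, Rh5 and Rh6) and norpA were among the listed genes that were not measured. Of 33 listed genes, 21 were measured, with a median of -0.04. At an unadjusted p under 0.05, 0 were positive and 1 negative (4.37% and 2.97% of all). That gene was rdgC, the phosphatase that resets rhodopsin, at -0.58 (SE 0.197). It measured 4.45, 3.88 and 4.42 in light, 4.67, 5.07 and 4.80 in the LD dark phase and 4.48 to 4.87 in DD, so that the lit arrays were below all 9 dark ones. The gene retinin, a component of the corneal lens, was at -0.61 with a large standard error of 0.318, and Cds, an enzyme of phospholipid renewal in photoreceptors, at -0.23 (SE 0.13). The light-gated channel genes trp and trpl were at -0.09 and 0.14, and the scaffold gene inaD at 0.20. The trpl difference had the same sign on both days, 0.43 in LD and 0.29 in DD.

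Histamine, the photoreceptor transmitter, is recycled through glia by conjugation to beta-alanine. Of 8 genes, 6 were measured, 0 had an unadjusted p under 0.05 on the probe set that represents them and the median was -0.14. The members with the smallest p were e (ebony), which makes the conjugate, at -0.22 (SE 0.108), the beta-alanine transporter gene Balat at -0.25 (SE 0.127) and the carcinine transporter gene CarT at -0.27 (SE 0.177). After quantile normalization 2 members were negative at that level. A second, lower probe set of CarT was at -0.28 (SE 0.1, limma unadjusted p = 0.0139). Its mean was 1.76, and it is not counted here. The gene t (tan), whose product frees histamine again, had an interaction of 0.04 with a standard error of 0.335. Its values ran 6.66, 5.95 and 5.60 through the light and 5.47, 6.07 and 6.51 through the LD dark phase, and lay between 6.60 and 6.87 in DD. The LD phase means were thus nearly equal although the values moved within each phase.

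Screening pigment genes, which shield the ommatidia, went both ways. Of 20 measured genes, 1 was positive and 4 were negative at an unadjusted p under 0.05 (4.37% and 2.97% of all), with a median of -0.07. Without single arrays the median ranged from -0.11 (without CT18) to -0.02 (without CT22), and the negative genes numbered 1 without ZT2 and 2 without ZT14, ZT18, CT18 or CT22. The positive gene was rb (ruby), a subunit of an adaptor complex for pigment granules, at 0.32 (SE 0.0989), and its LD and DD differences were opposed without overlap. The smallest p-values of the negative genes belonged to pn (prune), at -0.29 (SE 0.0927), also opposed without overlap, and to the pigment transporter gene st (scarlet), at -0.30 (SE 0.113). The granule trafficking gene Rab32 was at -0.40 (SE 0.162). It measured 8.46 and 8.42 at ZT14 and ZT18 and between 7.81 and 8.07 on the other 10 arrays.

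Core clock genes had small interactions. Of 13 measured members, 0 were positive and 1 negative at an unadjusted p under 0.05 (4.37% and 2.97% of all). The median was -0.03, which took the other sign in 6 of 23 alternatives. The negative gene was Pdf (CG6496), the neuropeptide of the clock neurons, at -0.23 (SE 0.101, limma adjusted p = 0.654). It measured 6.54 to 6.62 in light and 6.54 to 6.66 in the LD dark phase, 6.77, 6.64 and 6.53 by subjective day and 6.44, 6.51 and 6.37 by subjective night, so that its 3 lowest values were in the subjective night.

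The mutated gene tim was at -0.16 (SE 0.119), per at 0.17 (SE 0.145), cyc at -0.14 (SE 0.113) and Clk at 0.11 (SE 0.177). The values of tim lay between 6.44 and 6.78 in LD and between 6.48 and 6.75 in DD. Those of per lay between 4.81 and 5.30. Lower probe sets of tim had interactions of -0.05 and 0.10. With these standard errors, interactions of this size could not be told from 0.

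Candidates for clock output included genes with an LD difference in both directions. Of 10 measured, 1 was positive and 3 were negative at an unadjusted p under 0.05 (4.37% and 2.97% of all), with a median of -0.01. Pdh, described above with the chromophore genes, is 1 of the 3 and counts in both lists. Usp8, a deubiquitinating enzyme, was at 0.52 (SE 0.202). It measured 6.94, 7.25 and 6.92 in light and still 7.06 at ZT14, then 6.35 and 6.46, and 6.17 to 6.46 throughout DD. The high values thus covered the light and the first array after lights-off. Achl (CG17386) was at -0.30 (SE 0.129), with at most 3.06 in light and 3.27 to 3.58 on the 9 dark arrays. Slob, whose product binds the Slowpoke potassium channel, was at -0.60 (SE 0.279). It measured 7.78, 6.79 and 7.03 in light, 7.35, 8.04 and 7.83 in the LD dark phase and 7.69 to 7.87 in DD. ZT2 thus lay within the DD range, and ZT14 lay below it.

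Only part of the heat shock and chaperone list was measured. Hsp22, Hsp23, Hsp70Aa, Hsp70Ba and Hsp83 were among the missing genes, so the values describe the measured members alone. Of 13 measured, 9 had interactions above 0 (52.8% of all probe sets), 4 were positive at an unadjusted p under 0.05 (4.37% of all) and 0 negative, and the median was 0.21. Hsp110, a partner of the Hsp70 chaperones, was at 0.44 (SE 0.132). It measured 4.05, 3.96 and 3.76 in light and 3.76, 3.94 and 3.84 in the LD dark phase, but 3.30, 3.61 and 3.46 by subjective day against 3.68, 3.88 and 3.89 by subjective night. The low group was the subjective day, with CT2 lowest. The small heat shock gene Hsp26 was at 0.33 (SE 0.11) and Hsc70-2 at 0.33 (SE 0.125). DnaJ-1, a cochaperone, was at 0.40 (SE 0.197). Without single arrays the list median ranged from 0.10 (without ZT2) to 0.26, and it was 0.13 without CT2, the array with the lowest median. Over all 23 alternatives the list median lay between 0.0565 and 0.26.

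Genes that answer neuronal activity had no member at an unadjusted p under 0.05 among 9 measured, with a median of 0.11. This median was 0.03 without ZT14, 0.04 without CT2, 0.05 without ZT2 and 0.17 without ZT22. Over all 23 alternatives it lay between 0.0092 and 0.17. The transcription factor gene Atf3 was at 0.17 (SE 0.0921), the Fos gene kay at 0.29 (SE 0.164), with 0.06 on its other probe set, and the phosphatase gene puc at -0.19 (SE 0.112). Of 7 measured DNA repair genes, 1 was negative at that level (2.97% of all), the repair helicase gene hay, at -0.25 (SE 0.0986). Its values were 5.14, 5.19 and 5.25 in light, 5.28, 5.26 and 5.06 in the LD dark phase, 5.26, 5.25 and 5.21 by subjective day and 5.07, 4.99 and 4.96 by subjective night. The recombination gene okr was at -0.13 and the polymerase gene PolZ1 at -0.14.

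Among 13 measured immune genes, 2 were positive and 0 negative at an unadjusted p under 0.05 (4.37% and 2.97% of all), with a median of 0.08. Without single arrays the median ranged from 0.0022 (without CT22) to 0.18 (without CT14). Besides PGRP-LB, the other was PGRP-SC2, a further peptidoglycan-degrading enzyme, at 0.35 (SE 0.151). It differed in DD by -0.46 (limma adjusted p = 0.0468), where PGRP-LB differed by -0.18 (adjusted p = 0.34), with 5.53 to 5.64 by subjective day and 5.93 to 6.11 by subjective night. The antimicrobial peptide gene DptB was at 0.65 with a standard error of 0.433. Single arrays set its spread, with the highest values at CT22 (8.15) and ZT10, and 6.71 to 7.20 on the other 10.

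Among metabolic genes, the storage protein gene Lsp2 (CG6806), secreted by fat body, had the smallest p of the head fat body list, at 0.59 (SE 0.149, limma adjusted p = 0.354). It measured 10.72, 11.01 and 10.76 in light, 10.45, 10.18 and 9.94 in the LD dark phase, and 10.44 to 10.60 on the 6 DD arrays. The DD values were level and lay between the lit and the dark arrays, except that ZT14 fell among them. The alpha-glucosidase gene tobi, a target of insulin-like signals, was at 0.63 (SE 0.197), with LD and DD differences of 0.44 and -0.20. The fat body list held 16 measured genes, 3 of them positive (4.37% of all probe sets) and 0 negative at an unadjusted p under 0.05. Its median was 0.03, which took the other sign in 3 of 23 alternatives. FASN1 is 1 of the 3 and counts again under lipid synthesis below.

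All 8 measured genes of glycolysis had positive interactions, as 52.8% of all probe sets had. At an unadjusted p under 0.05 there were 3 (4.37% of all), and the median was 0.21. Aldolase (Ald1) was at 0.33 (SE 0.118), with 10.50, 10.45 and 10.38 in light, 10.26, 10.53 and 10.27 in the LD dark phase, 10.10, 10.30 and 10.37 by subjective day and 10.51, 10.51 and 10.48 by subjective night. The subjective night lay above the subjective day without overlap, and CT2 was the lowest array. Hexokinase (Hex-A) was at 0.36 (SE 0.142) and enolase (Eno) at 0.26 (SE 0.11). Without single arrays the median ranged from 0.16 (without ZT22) to 0.31 (without CT10), and the count was 1 without ZT22, CT2 or CT22 and 5 without ZT18.

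In lipid synthesis, 10 of 11 genes were positive (52.8% of all probe sets), 2 of them at an unadjusted p under 0.05 (4.37% of all), with a median of 0.14. This median was 0.05 without ZT22, 0.06 without ZT2 and 0.08 without CT22. Fatty acid synthase (FASN1) was at 0.53 (SE 0.234), with 9.36, 9.14 and 8.88 in light, 8.41 to 9.07 in the LD dark phase and 8.40 to 8.95 in DD. ATP citrate lyase (ATPCL), which supplies its substrate, was at 0.29 (SE 0.133), and SCAP, the escort of a sterol-response factor, at 0.20 (SE 0.138). The other probe set of SCAP was at 0.05. Without any 1 of ZT2, CT2, CT6, CT18 or CT22, 0 genes were at that level.

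Detoxification genes showed no common direction. Of 27 measured, 1 was positive and 3 were negative at an unadjusted p under 0.05 (4.37% and 2.97% of all). The median of 0.01 took the other sign in 5 of 23 alternatives, among them a change of scaling. The cytochrome P450 genes Cyp6a9 and Cyp28a5 were at -0.45 (SE 0.151) and -0.26 (SE 0.0988). Cyp6a9 measured 5.80 to 5.92 in light and 6.02 to 6.42 on the 9 dark arrays. The glutathione transferase gene GstD1 was at 0.22 (SE 0.0971), with 10.20 to 10.33 in light and 9.87 to 10.15 on the dark arrays.

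The gut and the male reproductive tract had the largest medians of the 21 lists. Of 39 measured digestive enzymes, 35 had positive interactions (52.8% of all probe sets) and 16 were positive at an unadjusted p under 0.05 (4.37% of all), with a median of 0.66, made of -0.26 in LD and -0.91 in DD. Bace, an aspartic protease gene, was at 2.26 (SE 0.77). It measured 5.42, 6.96 and 6.18 in light, 5.13, 6.71 and 7.58 in the LD dark phase, 4.86, 5.70 and 6.91 by subjective day and 8.08, 8.71 and 8.33 by subjective night. The values spread widely within each phase before the second night, and the 3 night arrays of DD were the highest. The maltase gene Mal-A6 was at 0.75 (SE 0.258), and the trypsin gene alphaTry at 2.27 (SE 0.95). Trypsins, Jonah proteases and lysozymes have near-identical copies whose probe sets may share signal.

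Of 29 measured male reproductive genes, 28 were positive (52.8% of all probe sets) and 15 were positive at an unadjusted p under 0.05 (4.37% of all), with a median of 0.61. Seminal fluid genes led by p-value: Acp32CD at 0.70 (SE 0.168), Acp36DE at 1.39 (SE 0.435) and Acp76A at 0.37 (SE 0.118). The means of Acp32CD (2.37) and Acp76A (1.79) lay below 2.88, where the size of a difference is uncertain. Acp36DE measured 2.40, 2.53 and 2.76 in light, 2.43, 3.20 and 3.62 in the LD dark phase, 1.78, 2.40 and 3.21 by subjective day and 4.42, 4.71 and 4.01 by subjective night. In all 3 genes the subjective night exceeded the other 9 arrays. Of 16 thorax muscle genes, 15 were positive, 3 at an unadjusted p under 0.05, against the same shares of all probe sets, with a median of 0.15. The flight muscle actin gene Act88F was at 1.03 (SE 0.323), another muscle actin gene, Act79B, at 0.32 (SE 0.129) and the tropomyosin gene Tm2 at 0.28 (SE 0.116).

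Single arrays moved these counts. At an unadjusted p under 0.05 the digestive list had 5 genes without CT2, 6 without ZT6, ZT14 or CT6, 7 without CT18, and 27 without CT10. The male list had 9 without CT2 and 24 without CT10, and the muscle list 1 without ZT14, CT2 or CT6 and 6 without ZT22 or CT10. With the body-tissue score, which is formed from these same lists, as a covariate the medians were -0.08, 0.02 and 0.03, Bace stood at 0.05 and Acp36DE at 0.19. The 15 measured genes of the ovary had a median of 0.07, and 1 was positive at that level (4.37% of all). This was the vitelline membrane gene Vm34Ca, at 0.44 (SE 0.183). Its high arrays were ZT6 (5.78) and CT18 (5.83), against 5.21 to 5.40 on the other 10. The eggshell gene Cp18, at 0.28 (SE 0.149), was also highest at CT18, and the germline gene otu was at 0.21 (SE 0.117).

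Markers of head cells had list medians between -0.07 and 0.12. Of 12 neuron genes, 1 was positive at an unadjusted p under 0.05 (4.37% of all), and the median was 0.12. The positive gene was the vesicular glutamate transporter gene VGlut, at 0.22 (SE 0.101). The active zone gene brp was at 0.24 (SE 0.113), with 0.17 and -0.01 on other probe sets, and the synaptobrevin gene nSyb at 0.20 (SE 0.114). Of 9 glia genes, 1 was negative at that level (2.97% of all), and the median was -0.07. The negative gene was the astrocyte gene alrm, at -0.30 (SE 0.125). The barrier glia gene moody was at 0.17 (SE 0.116) and the GABA transporter gene Gat at -0.19 (SE 0.13). Of 12 eye genes, 0 were at that level and the median was -0.02, which took the other sign in 5 of 23 alternatives. The eye transcription factor genes eya, ey and gl were at -0.20, -0.17 and -0.37. The value of gl at ZT14, 4.39, stood above its 3.46 to 3.77 on the other 11 arrays.

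**Figure D5:**
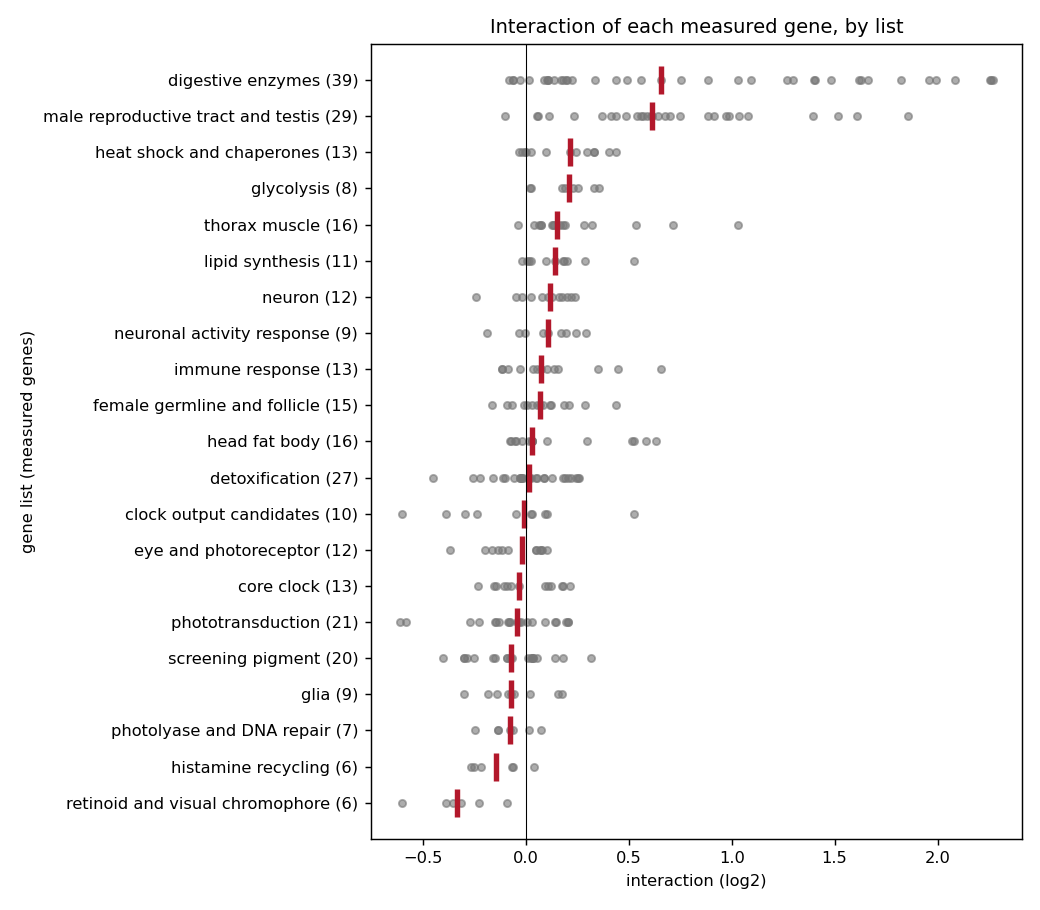
Interaction (log2, horizontal axis) of every measured gene of the 21 lists, 1 dot per gene, with the list median as a red bar and the number of measured genes in brackets. Digestive and male reproductive genes spread up to 2.27 and 1.85 with medians of 0.66 and 0.61, the 6 chromophore genes lie below 0 with a median of -0.34, and the core clock, eye and detoxification lists are centred near 0.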

How the data were processed

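RNA from pooled adult heads was hybridised to Affymetrix DrosGenome1 arrays, 1 per time. The deposited values are on the log2 scale and come from RMA, as the submitters' processing notes name it, a method that corrects background, normalizes by quantiles and summarises each probe set. The RMA version, and which arrays were normalized together, were not given in the sources used. The number of arrays limits the precision, since arrays carry no depth.

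A model of 4 group means was fitted over the 12 arrays with limma 3.58.1 in R 4.3.3, with 8 residual degrees of freedom, and the interaction and both single-day differences were taken as contrasts with two-sided moderated statistics and Benjamini-Hochberg adjustment over 13966 probe sets (threshold 0.05). The fit was tested on simulated data. The platform annotation gave 1 symbol for 12442 probe sets, several for 327 and none for 1197, and those with several or none were not named. Locus tags come from the RefSeq gene table. A gene is represented by its probe set with the highest mean over the arrays.

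By the naming rule, genes past the threshold came first (there were 0), then the smallest p-values up to 24 genes, the 3 smallest p-values in each of 21 gene lists, and per, tim and Clk. Other list members are named beside their list. The members, lists and tests were chosen with earlier results of these data known, so list counts and medians are descriptions with no test. Listed genes that had no own probe set were left out. Some genes, such as Pdh and FASN1, are on several lists and count in each.

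The alternatives were quantile normalization again, median centring, a filter on low probe sets, a trended robust prior, array weights, clock hour as a block, a trend over collection hours, the body-tissue score as a covariate, omission of hours 2 and 14, unmoderated statistics, each array left out, and ZT14 and CT2 left out together, the last chosen after seeing the data. A search for promoter motifs was not run, because no promoter sequences were used here.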

Additional observations from a re-analysis of the deposited data

How the results depend on the processing

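The count of interactions past the threshold was 0 and stayed at 0 with quantile normalization (smallest adjusted p 0.0773), median centring, the body-tissue covariate, omission of hours 2 and 14, and unmoderated statistics. With array weights it was 1, under the trended robust prior 1, and among probe sets above the median mean 1, each time Sirup. It was 1 with clock hour as a block (Acp1, -1.19) and 3 with the collection trend (Acp32CD, CG15219, Sirup). Without single arrays it ranged from 0 to 6: 2 without ZT14 (Sirup and a probe set with no symbol), 2 without CT10 (CG6770, Sirup), 6 without ZT22 (CG12699, Spn38F, CG1943, Sirup, Sgp and a probe set with no symbol) and 0 without each other array. Without ZT14 and CT2 together, a choice made after seeing the data, it was 1. The causes were not tested.

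The interaction of the body-tissue score, 0.47, was 0.28 without hours 2 and 14 and 0.21 from thorax muscle alone, and ranged from 0.32 to 0.60 without single arrays. Signs turned for CarT (0.072 with the covariate, 0.052 without hours 2 and 14), PolZ1 (0.021) and gl (0.029), both with the covariate, and Clk (-0.0047 to 0.23 without single arrays). The signs were followed for the 85 genes of the naming rule, and 0 signs turned for the others of these under the alternatives run. Genes named outside the rule, such as t, ninaB and Rab32, were not followed in this way. Of the list medians, 410 values moved by less than their spread and 73 by more. The clock-hour block pairs the LD and DD arrays of each hour; the labels give no other replicate numbers. With 8 residual degrees of freedom and a median standard error of 0.112, small interactions were not detectable.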

Other observations

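Probe sets outside the naming rule included some of similar size. A lower probe set of M7BP, which encodes a myosin-binding protein, had an LD difference of -0.77, a DD difference of 0.00 and an interaction of -0.77 (SE 0.164, limma adjusted p = 0.328). It was named after its values were seen. A probe set with no gene symbol had an interaction of -0.70 (SE 0.14) and opposed its phases as Sirup did, with 7.93, 8.01 and 8.09 in light, 8.27, 8.70 and 8.70 in the LD dark phase, 8.50, 8.56 and 8.47 by subjective day and 8.31, 8.30 and 8.45 by subjective night. Its groups did not overlap within either day. Among other crossing genes with smaller p-values were Bcs1, which encodes a mitochondrial chaperone (-0.42, SE 0.109), and the odorant binding protein gene Obp44a (-0.33, SE 0.0919), also named after their values were seen.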
